A study of Mus musculus with 3 samples.

Results

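The mitochondrial respiratory chain is encoded by 2 genomes, and the nuclear share of it was examined here in chromatin-bound RNA of macrophages. Genes were taken as members when they had a protein-coding transcript in the annotation and a symbol beginning with Ndufa, Ndufb, Ndufc, Ndufs, Ndufv, Uqcr, Cox4, Cox5, Cox6, Cox7, Cox8 or Atp5, with pseudogene symbols (-ps) left out. This gave 90 gene identifiers with 89 symbols, of 55536 annotated genes and 22015 nuclear protein-coding genes. Atp5o has 2 identifiers, and the one that spans 242585 bases is called Atp5o-long here. The prefixes also cover genes that are not subunits, such as the Ndufaf assembly factors, and another 13 symbols with these prefixes were left out by the rule.

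The cells were bone marrow-derived macrophages (BMDM) of C57BL/6J mice, primary cells that received Lipid A, the Toll-like receptor 4 agonist part of lipopolysaccharide, at 100 ng/ml over 40 min. RNA of the chromatin fraction was depleted of ribosomal RNA and sequenced as total RNA in 1 group of 3 biological replicates. The input was 1 µg for replicate 1, 250 ng for replicate 2 and 500 ng for replicate 3, so RNA amount and replicate cannot be told apart. The labels give age and sex as not collected and cite 1 donor entry for all 3, and nothing says that they came from separate animals, so p-values measure only the spread between these libraries. Untreated cells, other times and other fractions were not analysed here, so no value below is a response to Lipid A.

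Complex I takes electrons from NADH, complex III passes them from ubiquinol to cytochrome c, complex IV hands them to oxygen, and complex V uses the proton gradient that this creates to make ATP. Most subunits are encoded in the nucleus and imported, and they are assembled with a few subunits made inside the mitochondrion. In macrophages, the chain also supplies signals during activation, and complex IV carries several subunits that exist in widely expressed and tissue-restricted versions. RNA on chromatin consists largely of transcripts that are being made or processed, and it is not a measure of the cytoplasmic mRNA or of protein.

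The libraries held 12699813, 18280033 and 18087091 expected counts in replicates 1, 2 and 3. Levels are given as TPM, a share of the library after division by length, and were set against a reference, the median of 8765 nuclear protein-coding genes expressed at TPM 1 or more on average (called expressed genes below), which lay at a TPM of 7.56, 6.64 and 6.56. A gene is called higher or lower when limma's treat test placed its level over 2-fold from the reference at an adjusted p under 0.05 over all 18426 genes tested. Of 10 macrophage marker genes 8 were called higher and 0 lower. All 3 T cell and all 3 B cell markers were lower, and so were all 8 muscle and heart markers. These lower calls of genes at or near 0 depend on the 0.1 added to each TPM. With 0.01 in its place, 1 T cell, 2 B cell and 3 muscle and heart markers were called lower, and 8 macrophage markers stayed higher. Of 4 erythroid markers 3 were lower, and Alas2, at a TPM of 3.38 ± 0.545 (SD, n = 3), was neither.

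The 90 members took a very small part of this RNA. Their counts summed to 3799, 5016 and 5291 in replicates 1, 2 and 3, or 0.0299%, 0.0274% and 0.0293% of all expected counts. The exact Poisson 95% intervals of these sums, which cover counting error only, run from 3679 to 3922, from 4878 to 5157 and from 5149 to 5436. Their summed TPM was 332, 280 and 290, which is 0.134%, 0.145% and 0.144% of the TPM of nuclear protein-coding genes. The share was thus nearly equal in the 3 libraries.

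A few genes held much of this signal. Atp5l, which encodes subunit g of ATP synthase, had 1693 counts over the 3 libraries, and Atp5b, Atp5a1 and Ndufs1 had 1464, 1264 and 1115. These 4 genes together made up 39.2% of the members' 14106 counts. The median member had a mean of 17.7 counts per library, and 40, 33 and 30 of the 90 had under 10 counts in replicates 1, 2 and 3. Counts are not divided by length, so on the per-length TPM scale the order is another one.

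Against the reference, 2 members were called higher, 58 lower and 30 neither. The background was 15.1% called higher and 52.5% called lower over all genes tested, and 19.4% and 44.6% over the 12304 nuclear protein-coding genes tested. The median member lay at -2.19 ± 0.19 (SD, n = 3) on the log2 scale against the reference, beside -1.07 ± 0.01 over the nuclear protein-coding genes tested. These sets are unlike, since members were tested at any level while most other genes had to average TPM 0.1. Of the 83 members that averaged TPM 0.1 or more, 51 were called lower, with a median of -2 ± 0.15. Without that filter, 15350 of 22015 nuclear protein-coding genes were called lower, with a median of -4.32 ± 0.04, beside 58 of the 90 members. In bulk RNA of this kind fewer cells with a transcript and less of it per cell cannot be told apart. Of the 58 members called lower, 7 had a mean TPM under 0.1, and 5 of these were listed at 0 in every library. When the reference came from genes averaging TPM 0.1 or more, the split was 8 higher to 34 lower, beside 4504 to 6741 over all 18426 genes tested. With that reference 16 members moved from below to above it, and with one from genes averaging TPM 5 or more 9 moved from above to below, among them Cox4i1, Cox5a, Atp5j, Atp5a1, Uqcrc1 and Ndufs1, so positions near the reference depend on its choice.

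**Figure D1:**
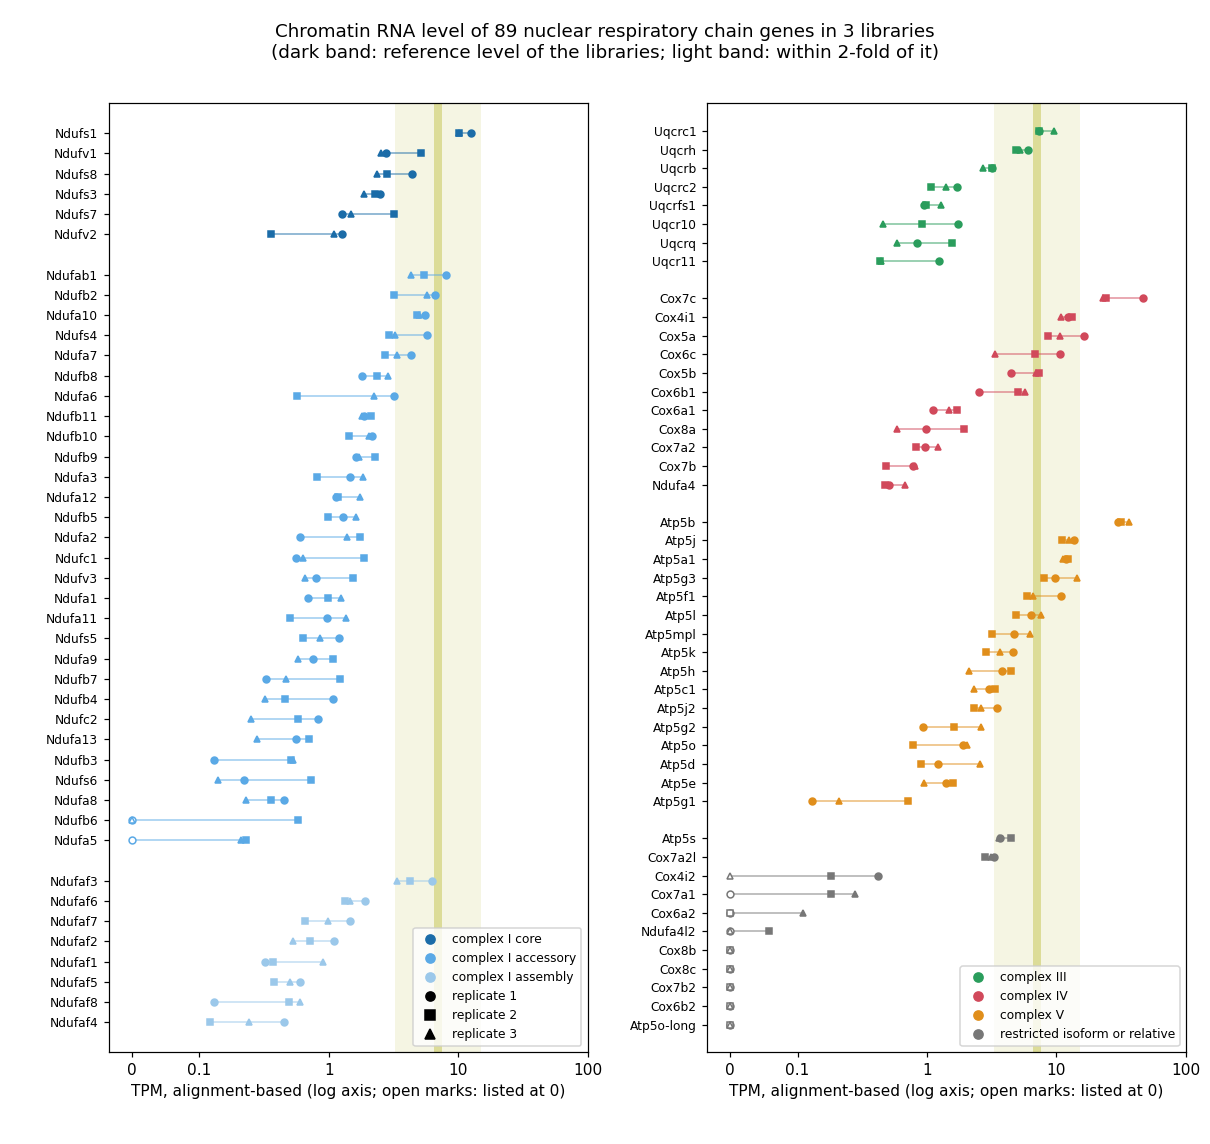
TPM of 89 of the 90 members (horizontal log axis, one row per gene, grouped by role and ordered by mean) in replicates 1 (circles), 2 (squares) and 3 (triangles), with open marks for values listed at 0, the reference level as a dark band and the 2-fold zone as a light band. Cox7c and Atp5b are the 2 genes called higher, and most complex I accessory subunits and assembly factors lie to the left of the light band.

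The complex V genes and the complex IV genes held the highest levels. Atp5b, the catalytic beta subunit of ATP synthase, reached TPM 29.8 in replicate 1, 31.7 in replicate 2 and 36.6 in replicate 3, the order kept for triplets of values below. It lay above the reference in every library, by 2.22 ± 0.14 (SE) on the log2 scale (limma treat, adjusted p = 0.00045), and ranked 1391 of 22015 nuclear protein-coding genes. Cox7c, a small structural subunit of complex IV, had a TPM of 46.6, 24.3 and 22.8. Its library of replicate 1 stood apart from the other 2, and the mean difference from the reference was 2.08 ± 0.2 (SE) (limma treat, adjusted p = 0.0022). Both calls ended with a 4-fold zone in place of the 2-fold zone, and when levels were not divided by length Cox7c lay at -0.44 and Atp5b at 0.85 with no call.

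Of the 16 complex V genes, 1 was called higher, 5 lower and 10 neither, with a median of -0.97 ± 0.11 (SD, n = 3). Atp5a1, the alpha subunit that alternates with beta in the catalytic head, had a TPM of 11.8, 12.3 and 11.3, under Atp5b in every library. Atp5j, coupling factor 6 of the stalk, had 13.7, 11.1 and 12.6. These 2 genes varied little between libraries and stood above the reference in each, within the 2-fold zone. Atp5g1, Atp5g2 and Atp5g3 encode the same mature c subunit of the rotor ring, and their levels differed: Atp5g3 had a TPM of 9.77, 8.06 and 14.4, Atp5g2 0.93, 1.62 and 2.63, and Atp5g1 0.13, 0.71 and 0.21. By TPM Atp5g3 was highest and Atp5g1 lowest of the 3 in every library, and Atp5g1 was the lowest gene of complex V. Atp5g1 and Atp5g2 had 45 counts each in all, and the effective length used for Atp5g1 was 2756, 1223 and 4428 bases. The authors' deposited credibility bounds of these 2 genes overlapped in replicates 1 and 2. In the alignment-free table Atp5g1 had a mean of 1.47 ± 0.226, close to Atp5e at 1.5 ± 0.253 (SD, n = 3). Atp5d, the delta subunit, and Atp5e, the epsilon subunit, which form part of the central stalk, had mean TPM of 1.56 ± 0.894 and 1.31 ± 0.338 (SD, n = 3) and were called lower. The Atp5d call was lost without replicate 1 (adjusted p = 0.081, limma treat), and its TPM of 2.58 in replicate 3 stood above 1.21 and 0.9 in the other libraries. The Atp5g2 call was lost without replicate 1 or 2 (adjusted p = 0.078 and 0.052, limma treat).

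Of the 11 complex IV genes, 1 was called higher, 5 lower and 5 neither, and the median of -0.97 ± 0.58 (SD, n = 3) moved more between libraries than that of any other group with a role in the chain. Cox4i1, the largest nuclear subunit and a regulatory one, had a TPM of 12.4, 13.1 and 10.9. Cox5a, which contacts Cox4 on the matrix side, had 16.3, 8.65 and 10.6. Both stood above the reference in every library, by 0.8 ± 0.13 and 0.72 ± 0.18 (SE), within the 2-fold zone. At the low end were Cox7a2, Cox7b and Ndufa4, small subunits of complex IV. Ndufa4, once counted as part of complex I and now placed in complex IV, had a TPM of 0.51, 0.47 and 0.68, from 18 counts in all. Cox7b had 0.78, 0.48 and 0.81 and Cox7a2 0.97, 0.82 and 1.21, and each of these 3 was called lower. The authors' deposited upper bounds of Cox7b (13.2, 10.3 and 10.6) lay above the reference in every library, while those of Cox7a2 and Ndufa4 lay under it. In the alignment-free table the call stayed for Ndufa4 and was lost for Cox7b (-1.24, adjusted p = 0.11, limma treat), while Cox7a2 lay above the reference at 0.43. Only 2 complex IV genes were called lower there, and the group median was -0.07. The highest and the lowest complex IV gene thus had a mean TPM of 31.2 and 0.553.

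The 7 core subunits of complex I, which carry the flavin and the iron-sulfur clusters or bind ubiquinone, had 0 calls higher, 3 lower and 4 neither. Ndufs1, the largest of them, had a TPM of 12.5, 10.1 and 10.2. It stood above the reference in 3 of 3 libraries, within the 2-fold zone. Ndufv2, which holds an iron-sulfur cluster beside the flavin, was lowest with 1.27, 0.36 and 1.09. Ndufv1, the flavin-binding subunit, had 2.78, 5.14 and 2.55, so the pair of genes for the NADH-oxidising tip did not share the library in which they were highest. Ndufs3 and Ndufs7 were also called lower, and the call was lost for Ndufs7 without replicate 1 or 3 and for Ndufs3 without replicate 3 (adjusted p = 0.15, 0.087 and 0.095, limma treat). In the alignment-free table Ndufs7 lay above the reference at 0.58 and Ndufv2 alone of the 7 was called lower.

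The 29 accessory subunits of complex I, which surround the core and have no redox centre, had 0 calls higher, 24 lower and 5 neither, with a median of -2.46 ± 0.26 (SD, n = 3). Ndufab1, an acyl carrier protein that also serves mitochondrial fatty acid synthesis, was highest with a TPM of 8.02, 5.46 and 4.33. Ndufb2 followed with 6.6, 3.19 and 5.71, and Ndufa10 with 5.51, 4.81 and 4.98. These 3 lay within 2-fold of the reference on average. Ndufb8, called lower, lost that call without any 1 of the 3 libraries (adjusted p = 0.16, 0.079 and 0.053, limma treat). At the other end Ndufa5 had 3 counts over the 3 libraries and Ndufb6 had 4, all of them in replicate 2. A TPM of 0.147 ± 0.127 for Ndufa5 and of 0.193 ± 0.335 for Ndufb6 (SD, n = 3) rests on these few counts. Of the 29 genes, 17, 13 and 13 had under 10 counts in replicates 1, 2 and 3.

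The 8 Ndufaf genes encode factors that help to assemble complex I and are not part of it. Of these, 7 were called lower and 1 neither. Ndufaf3 was the exception, with a TPM of 6.26, 4.24 and 3.36, and its annotated exons share bases with Impdh2 (mean TPM 17.3 ± 3.54, SD, n = 3). Ndufaf4 was lowest, with 0.45, 0.12 and 0.24. All 8 genes were above 0 in every library.

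Of the 8 complex III genes, 0 were called higher, 5 lower and 3 neither. Uqcrc1, a core protein, had a TPM of 7.36, 7.4 and 9.57, close to the reference, while its partner Uqcrc2 had 1.7, 1.07 and 1.39 and was called lower. Uqcrh, the acidic hinge protein beside cytochrome c1, had 6, 4.85 and 5.19. Uqcrfs1, the Rieske iron-sulfur protein that moves electrons within the complex, had 0.94, 0.98 and 1.29. The lowest was Uqcr11, with 8 counts in all and a TPM of 1.24, 0.43 and 0.44. Uqcrc1 and Uqcrc2 did not overlap in any library.

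Several complex IV subunits come in pairs of genes, one used in most tissues and one restricted to muscle, lung, testis or other sites. The upstream sequences of the 4 pairs with both genes in the RefSeq promoter table are printed here, so that each widely expressed gene can be read beside its restricted counterpart, with CG dinucleotides in capitals. Each line gives the 150 bases before the RefSeq start of the gene (build GRCm38.p6), read in the direction of transcription. The regions are chr7:30626115-30626264 on the minus strand for Cox6b1, chr7:4753095-4753244 on the minus strand for Cox6b2, chr9:79759854-79760003 on the minus strand for Cox7a2, chr7:30184021-30184170 on the plus strand for Cox7a1, chrX:106015550-106015699 on the plus strand for Cox7b, chr5:71548206-71548355 on the minus strand for Cox7b2, chr19:7217617-7217766 on the minus strand for Cox8a and chr7:140900447-140900596 on the minus strand for Cox8b.
Cox6b1: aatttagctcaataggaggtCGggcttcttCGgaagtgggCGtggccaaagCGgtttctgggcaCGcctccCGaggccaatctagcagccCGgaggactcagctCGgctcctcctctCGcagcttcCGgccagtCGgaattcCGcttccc
Cox6b2: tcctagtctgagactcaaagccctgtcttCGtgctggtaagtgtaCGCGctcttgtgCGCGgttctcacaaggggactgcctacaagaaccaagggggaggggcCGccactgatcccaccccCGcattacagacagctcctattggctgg
Cox7a2: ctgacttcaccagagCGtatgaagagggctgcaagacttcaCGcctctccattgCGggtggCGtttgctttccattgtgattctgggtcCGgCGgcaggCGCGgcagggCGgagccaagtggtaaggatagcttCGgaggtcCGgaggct
Cox7a1: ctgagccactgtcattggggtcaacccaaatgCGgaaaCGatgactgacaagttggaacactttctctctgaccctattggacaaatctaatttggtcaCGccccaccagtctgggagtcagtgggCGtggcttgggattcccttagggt
Cox7b: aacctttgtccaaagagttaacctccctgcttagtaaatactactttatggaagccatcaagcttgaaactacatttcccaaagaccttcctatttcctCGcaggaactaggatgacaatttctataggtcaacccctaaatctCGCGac
Cox7b2: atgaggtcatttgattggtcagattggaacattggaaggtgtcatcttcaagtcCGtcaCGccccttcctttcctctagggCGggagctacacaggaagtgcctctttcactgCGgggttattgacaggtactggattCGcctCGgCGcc
Cox8a: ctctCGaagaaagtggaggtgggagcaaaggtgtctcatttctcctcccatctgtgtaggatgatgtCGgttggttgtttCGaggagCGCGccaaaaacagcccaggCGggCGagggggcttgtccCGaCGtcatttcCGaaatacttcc
Cox8b: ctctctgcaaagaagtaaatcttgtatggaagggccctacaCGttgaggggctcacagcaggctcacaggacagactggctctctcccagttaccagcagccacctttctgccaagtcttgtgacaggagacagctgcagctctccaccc
The widely expressed gene holds more CG dinucleotides than the restricted gene in 3 of the 4 pairs, with 12 and 7 for Cox6b1 and Cox6b2, 11 and 4 for Cox7a2 and Cox7a1, and 10 and 1 for Cox8a and Cox8b. Cox7b and Cox7b2 go the other way, with 3 and 7.

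In all 8 pairs the widely expressed gene had the higher listed TPM in 3 of 3 libraries, though the deposited bounds described below do not separate every pair. Cox4i2, the lung form of Cox4, had a TPM of 0.42, 0.18 and 0, from 3, 2 and 0 counts, beside the values of Cox4i1 above. Its level depended on the table: in the alignment-free one it had 2.38, 2.1 and 2.82, beside 55.3, 37.4 and 46 for Cox4i1. In the alignment-based table Cox6b2, the testis form, was listed at 0 in every library, and Cox6b1 had 2.5, 5.02 and 5.72. A count of 0 allows a TPM of up to 0.829, 0.571 and 0.581 for Cox6b2 (3 counts per library). The authors' deposited credibility bounds for Cox6b2 lie wholly above these limits and leave out the listed 0, so value and bounds disagree on this gene. The bounds run from 0.975 to 4.1 in replicate 1, 0.679 to 2.94 in replicate 2 and 0.7 to 2.97 in replicate 3. In replicate 1 they reach past the Cox6b1 level, so a difference between this pair is not shown there.

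The other pairs were closer to the limit of detection. Cox8a, the liver form that most tissues use, had a TPM of 0.99, 1.92 and 0.59 from 4, 13 and 4 counts, and Cox8b, the heart and muscle form, and Cox8c were listed at 0. For Cox8b a count of 0 allows a TPM of up to 1.42, 1.05 and 1.04, so replicates 1 and 3 of Cox8a lay under the limit. In the alignment-free table Cox8b was above 0, with 1.39, 0.913 and 0.567, beside 22.2, 8.81 and 9.44 for Cox8a. Cox7a1, the heart and muscle form, had 0, 1 and 1 counts, Cox6a2 0, 0 and 1, Ndufa4l2 0, 1 and 0, and Cox7b2 none. The deposited upper bounds of Cox7a1 (1.47, 1.34 and 1.54) lay above the TPM of Cox7a2 in every library. Those of Ndufa4l2 (1.39, 1.1 and 1.03) lay above Ndufa4 in every library, and those of Cox8b above Cox8a in replicates 1 and 3. A difference is not shown in these cases. For Cox4i2 and Cox6a2 the upper bounds stayed under the lower bounds of the widely expressed gene in every library. For Cox7b2 and Cox8c they stayed under its TPM but not always under its lower bounds. The bounds overlapped for Cox7b2 in replicates 1 and 2 and for Cox8c in replicates 1 and 3, so a difference is not shown there. In replicate 3 Cox8a, at 0.59, also lay under the 0.621 that a count of 0 allows for Cox8c. AA467197, a relative of Ndufa4, had 0, 1 and 2 counts. The mean difference on the log2(TPM + 0.1) scale ran from 2.31 (Cox7a2 minus Cox7a1) to 5.64 (Cox4i1 minus Cox4i2), a size that depends on the pseudocount where a gene is at 0. The exact two-sided sign-flip permutation test gave p = 0.25 for each pair, which is the smallest that 3 libraries allow, and 0.25 after adjustment over the 8 pairs.

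**Figure D2:**
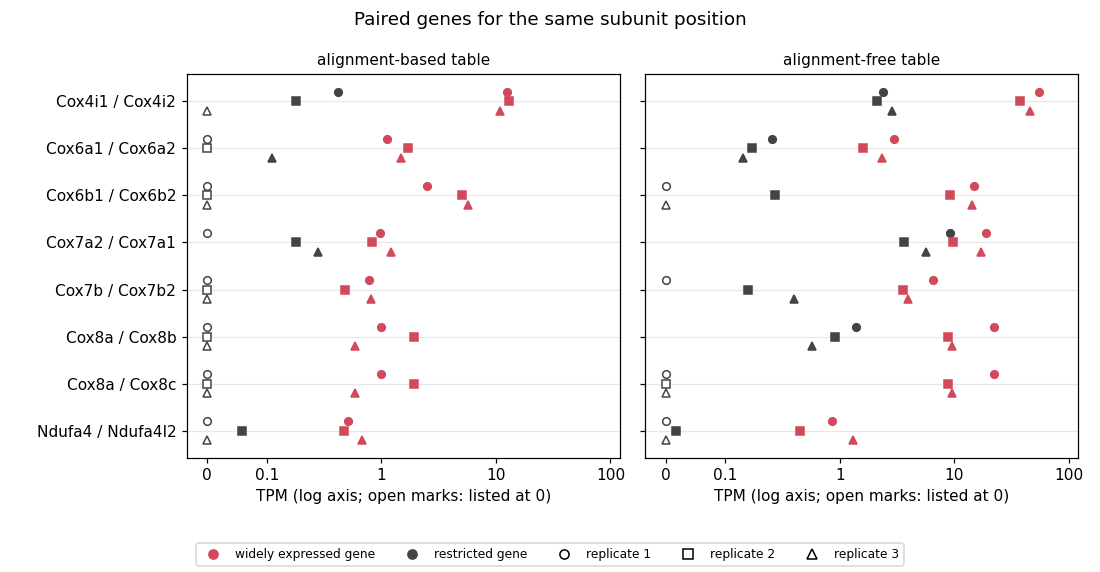
TPM (horizontal log axis) of the widely expressed gene (red) and the restricted gene (dark) of 8 pairs in replicates 1, 2 and 3, in the alignment-based table (left) and the alignment-free table (right), with open marks for values listed at 0. The red marks lie to the right of the dark marks in every library and both tables, and the gap for Cox7a2 and Cox7a1 is smallest in the alignment-free table.

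Transcript abundance was deposited in 2 forms, one from alignments and one made from the reads without an alignment file, and the members' levels depended on which was read. Of the 90 members, 82 (91.1%) had a higher mean TPM in the alignment-free form, as had 86.3% of expressed genes. Of the 57 members that reach TPM 1 on average, 6 (10.5%) were over 4-fold higher there and 0 over 4-fold lower, beside 4.23% and 0.0456% of the 8765 genes. Among genes with a mean TPM between 1 and 10, nearer to the members' levels, the shares were 6.05% and 0.0768%. Over members of any level, 11 were over 4-fold higher. Of the 58 members called lower, 47 were also called lower from the alignment-free table, and 5 members were called higher there in place of 2.

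The widest gaps between tables lay mostly in single isoforms. Ndufb2 had a TPM of 31.7, 71.8 and 87.1 in the alignment-free table. Of its mean of 63.6 ± 28.6 (SD, n = 3), 57.4 ± 30.3 was in ENSMUST00000128064.1, an isoform of 1110 bases annotated as retained intron, which had 1.1 ± 0.379 in the alignment-based table. Ndufb2 thus had the highest alignment-free level of all members, and its exons share bases with Braf on the opposite strand (mean TPM 22.1 ± 3.43). Ndufa12, an accessory subunit of complex I, had a mean of 1.35 ± 0.33 in the alignment-based and 23.7 ± 13.6 in the alignment-free table, with 36.8, 9.65 and 24.8 in the 3 libraries of the latter. Here the gap lay in ENSMUST00000179990.7, a protein-coding isoform of 566 bases (0.0633 ± 0.11 and 21 ± 13.4).

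For 3 more genes the tables gave different pictures. Cox7a2 had 1 ± 0.197 in the alignment-based and 15.2 ± 4.79 in the alignment-free table, with 10.6 ± 3.59 in a retained-intron isoform of 344 bases. Ndufaf8 went from 0.407 ± 0.246 to 8.19 ± 2.13, with 7.26 ± 1.86 in a protein-coding isoform of 781 bases. Cox7a1, the muscle form, went from 0.153 ± 0.142 to 6.13 ± 2.76, of which 5.58 ± 2.68 was in a protein-coding isoform of 485 bases. The level of Cox7a1 in these cells therefore differed between 2 summaries of the same libraries. Of the 8 muscle and heart markers, 8 were called lower in the alignment-based and 7 in the alignment-free table. There Myh7, the slow muscle myosin, had a mean of 5.96 ± 2.67, Ryr2 1.74 ± 0.503 and Ckm 1.05 ± 0.174, with 0.00667, 0 and 0.0467 in the alignment-based table, and the other 5 lay between 0 and 0.348. The part of such transcripts in the Cox7a1 value was not tested. By contrast Atp5b (32.7 ± 3.48 and 37.2 ± 8.29) and Cox5a (11.8 ± 4 and 11.1 ± 4.81) had like means in both.

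**Figure D3:**
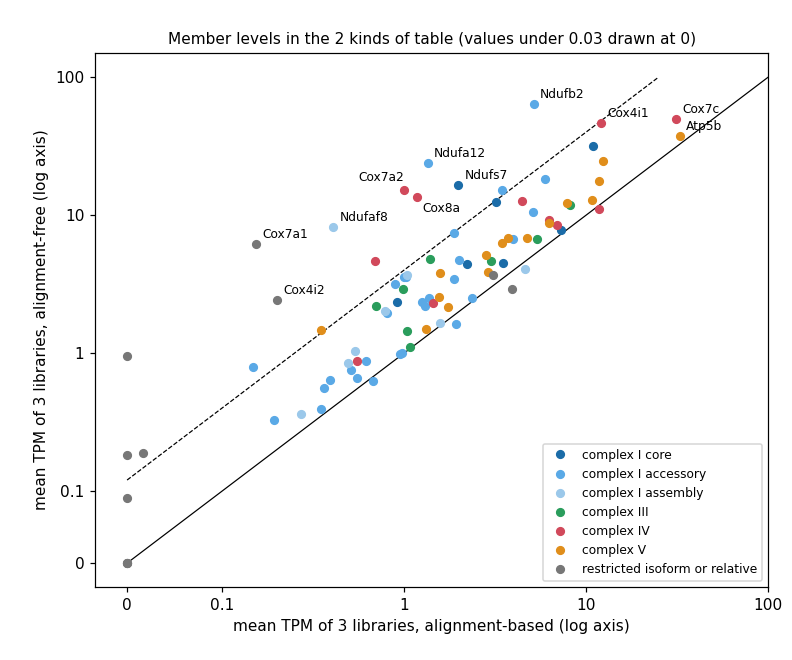
Mean TPM of the 90 members over 3 libraries in the alignment-based table (horizontal) and the alignment-free table (vertical), both on log axes, coloured by role, with values under 0.03 drawn at 0, a solid line of equality and a dashed line at 4-fold. Among members above 0.03 in both tables, Cox7a1, Ndufa12, Ndufaf8, Cox7a2 and Ndufb2 lie farthest above the solid line, and Atp5b and Cox7c lie near it. Cox8b, listed at 0 in the alignment-based table and at a mean of 0.958 in the other, also lies far above the line.

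The members had fewer counts and shorter transcripts than other expressed genes. These 57 members had a median of 25.3 counts per library, beside 270 for the 8765 expressed genes. The median length was 908 bases beside 2290. In the authors' deposited credibility bounds of TPM the upper bound was a median of 2.39 times the lower bound for these members and 1.47 times for the other set. Across the 83 members that average TPM 0.1 or more, level followed gene span with r = 0.05 (Pearson) and 0.07 (Spearman), and longest transcript with 0.21 and 0.22, as a description across genes that share these libraries.

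Much of the members' RNA was assigned to isoforms that keep an intron. Of the summed TPM of the 90 members, 44.4% ± 2.74 was in protein-coding isoforms and 44% ± 2.72 in isoforms annotated as retained intron (SD, n = 3). Among expressed genes these shares were 50% ± 2.4 and 37.6% ± 2.17. Per gene, the 41 expressed members with both kinds of isoform had a median retained-intron share of 63.3%, 53.9% and 53.7% in replicates 1, 2 and 3. The 5824 genes chosen in the same way had 42.9%, 38.9% and 38.8%. In both sets replicate 1 was highest, and the members' value was above the other in every library and in the alignment-free table, with a mean of 52.3% ± 3.84 beside 41.5% ± 1.47. No test was run on this difference, since a score over chosen genes is a description.

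Among single genes, Cox5a had a retained-intron share of 94.2%, 79.7% and 86.8%, and its 2 retained-intron isoforms had a mean TPM of 6.26 ± 3.29 and 4.22 ± 1.26 beside 1.36 ± 0.401 for the coding one. Cox4i1 had 82.3%, 81.2% and 75.2%. These 2 shares were alike in the alignment-free table, 88.9% ± 5.22 and 87.9% ± 1.19. Ndufa7, a small accessory subunit, had the highest share, 92.3% ± 1.96, but 23.2% ± 3.83 in the alignment-free table, where a processed transcript of 371 bases held most of its TPM. Ndufa6, Ndufab1 and Atp5f1, the b subunit of the ATP synthase stalk, had 88.1% ± 10.7, 83.5% ± 3.55 and 82.6% ± 7.68. Their shares were 88.3% ± 6.56, 73.8% ± 7.94 and 63% ± 5.45 in the alignment-free table. In the alignment-based table the Ndufa6 share of 100% in replicate 2 rests on 8 counts. At the low end Uqcrc2 had 20.6%, 0% and 10.8%. Cox7c has no retained-intron isoform among those counted, and 23.8 ± 10.2 of its mean TPM of 31.2 was in a protein-coding isoform of 540 bases. The tables hold annotated isoforms alone, so RNA of introns outside them was not measured.

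**Figure D4:**
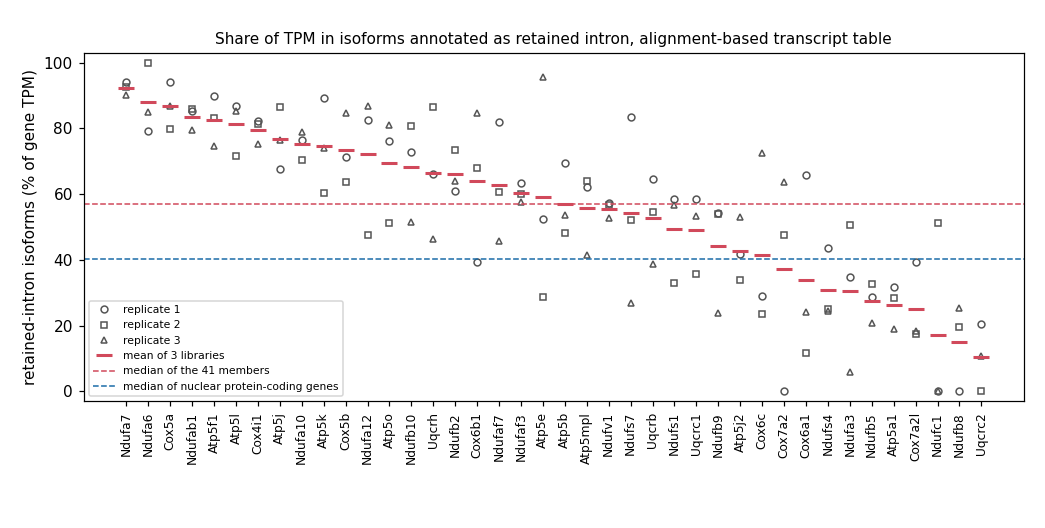
Share of each gene's TPM in isoforms annotated as retained intron (vertical, percent) for 40 of the 41 expressed members that have both such an isoform and a coding one, by replicate (open marks) and as the mean (red bars), with dashed lines at the median of the members and of 5824 nuclear protein-coding genes. The mean shares run from 92.3% for Ndufa7 down to 10.5% for Uqcrc2, and several low-count genes such as Atp5e and Cox7a2 scatter widely between libraries.

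Between replicates the members' spread was close to that of other genes of their level when all 3 libraries were used. In log2 CPM (counts scaled by library size in edgeR), 49 of the 90 members passed the count filter and 41 did not. Their median SD over the 3 libraries was 0.31, beside 0.27 for all 12996 genes that passed and 0.32 for the 4715 genes in the middle range of the members' level. Without replicate 2 the median SD was 0.16 for the members and 0.23 for genes of their level. Set against the mean over libraries, the median member lay at -0.08, -0.01 and 0.09 in replicates 1, 2 and 3. Of the 49, 30, 27 and 18 (61.2%, 55.1% and 36.7%) lay below their mean. The shares were 50%, 50.2% and 46.5% over all genes that passed, and 47.1%, 52% and 49.3% over genes of the members' level. In log2 CPM the members thus leaned down in replicate 1 and up in replicate 3, by medians that were small beside the median SD of 0.31. With log2(TPM + 0.1) against the reference, their medians were -0.04, -0.05 and -0.01, and 55.1%, 57.1% and 53.1% lay below their mean. The lean up in replicate 3 was not seen on that scale.

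The widest spread was in Atp5d, with a log2 CPM of 0.02, -0.13 and 1.3 and an SD of 0.79. Ndufv1 had 1.18, 2.54 and 1.43 (SD 0.73), Ndufs7 -0.48, 0.72 and -0.09 (SD 0.61) and Ndufv2 0.68, -0.32 and 0.61 (SD 0.56). Atp5d was high in replicate 3, Ndufv1 and Ndufs7 in replicate 2, and Ndufv2 was low there. The SD that counting alone gives was 0.31, 0.19, 0.36 and 0.33 for these 4 genes in the same order. For 15 of the 49 members the counting SD was as large as the observed SD or larger. Of the 49 members, 13 were highest in replicate 1, 17 in replicate 2 and 19 in replicate 3.

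The members are compact genes. Their median span was 7240 bases and their longest transcript had a median of 998 bases and 4 exons, beside 27200 bases, 3580 bases and 9 exons for expressed genes. They lie on 19 chromosomes. Of the 90, 20 (22.2%) have the start of a protein-coding gene on the other strand within 1000 bases upstream, beside 10.5% of expressed genes and 6.76% of all 22015. In 33 members annotated exons share bases with another gene, on the opposite strand in 29 of them, and no source used here says whether counting used strand. Levels of these members are uncertain for that reason. Atp5j shares bases with Gabpa (TPM 14.34, 7.45 and 8.73), which encodes a subunit of the factor GABP that is known for acting on respiratory genes. Cox6c shares them with Vps13b, whose mean TPM was 101 ± 6.43, and Cox4i1 with Emc8 (1.21 ± 0.106). How reads that also match pseudogene copies were divided is not known here, so members with such copies are uncertain too.

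Promoters of respiratory genes are known for sites of NRF1, of ETS family factors such as GABP, and of YY1. In the RefSeq table (GRCm38.p6, 250 bases before to 50 after the start) 71 of the 90 members had a promoter. The letters searched on both strands were GCGCATGC for NRF1, CCGGAAG for ETS and AAGATGGC for YY1. NRF1 letters were found in 11 of the 71 (15.5%), beside 6.02% of 7029 promoters of expressed genes and 3.76% of all 16521. YY1 letters were found in 9 (12.7%), beside 5.29% and 3.27%. ETS letters were found in 15 (21.1%), beside 20.7% and 12.3%, so against other expressed genes their share was nearly the same. At least 1 of the 3 was present in 30 members (42.3%), beside 29.1% and 17.8%. Letters for a TATA box (TATAAA) were found in 7 (9.86%), beside 6.74% and 12.9%. A match in letters is not evidence of binding.

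The NRF1 letters are shown in the 3 members of highest mean TPM among the 6 considered for printing that hold them within the 150 bases before the start, with these letters in capitals. The regions are chr5:108434400-108434549, chr15:82354292-82354441 and chr15:102671048-102671197, all on the minus strand (GRCm38.p6).
Atp5k: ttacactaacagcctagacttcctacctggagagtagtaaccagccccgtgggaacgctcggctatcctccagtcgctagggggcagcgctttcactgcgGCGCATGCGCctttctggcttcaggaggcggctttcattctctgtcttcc
Ndufa6: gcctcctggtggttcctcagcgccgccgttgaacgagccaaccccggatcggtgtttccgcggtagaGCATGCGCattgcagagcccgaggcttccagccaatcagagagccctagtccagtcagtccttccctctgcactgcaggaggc
Atp5g2: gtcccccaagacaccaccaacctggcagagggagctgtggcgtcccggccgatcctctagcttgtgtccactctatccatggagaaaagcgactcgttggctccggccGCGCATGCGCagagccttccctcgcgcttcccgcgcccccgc
In Atp5k and Atp5g2 the letters overlap with their own reverse complement, so both strands match at 1 place. The match begins 50 bases before the RefSeq start in Atp5k, 83 in Ndufa6 and 42 in Atp5g2, whose RefSeq start lies 1305 bases from the outer start in the annotation. The mean TPM was 3.71 ± 0.866 for Atp5k (subunit e), 1.99 ± 1.32 for Ndufa6 and 1.73 ± 0.855 for Atp5g2. Ndufa6 had 3.19, 0.57 and 2.22, and its call as lower was lost without replicate 1 or 2 (adjusted p = 0.064 and 0.11, limma treat).

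Related genes outside the rule gave a context for these levels. Of the 4 complex II genes, Sdha, the flavoprotein that oxidises succinate, was called higher (TPM 19.8, 18.2 and 17.2), and Sdhc and Sdhd, the membrane anchors, were called lower. The Sdha call was lost without replicate 3 (adjusted p = 0.084, limma treat) and by CPM, and the Sdhc call was lost in the alignment-free table. Cycs, cytochrome c, had 2.4, 1.3 and 2.87 and Cyc1, the cytochrome c1 of complex III, had 1.69, 2.92 and 1.61, and both were called lower. Both calls were lost in the alignment-free table and without replicate 1 (adjusted p = 0.11 for each, limma treat), that of Cycs also without replicate 2 and that of Cyc1 also without replicate 3 (adjusted p = 0.11 and 0.093, limma treat). Of 28 other assembly factors 0 were called higher and 20 lower, and of 78 mitochondrial ribosomal protein genes 2 higher and 55 lower, with a median of -2.44 ± 0.14 (SD, n = 3). Of 82 cytosolic ribosomal protein genes 20 were higher and 10 lower, with a median of 0.51 ± 0.12. This balance turned to 1 higher and 43 lower by CPM, with a median of -1.38, and to 2 higher and 26 lower with reference genes from TPM 5, with a median of -0.68. The median of the members, -2.19, stands beside these 2 values with no test.

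Among 13 regulators of mitochondrial biogenesis, 3 were called higher, 5 lower and 5 neither. Only 1 was called higher without replicate 1 or without replicate 3, and 2 without replicate 2. Esrra, a nuclear receptor of respiratory genes, had a TPM of 18.8, 20.6 and 14.7, Gabpb1 23.5, 15 and 19.2, and the mitochondrial DNA polymerase Polg 23.9, 32.2 and 27.6. The call of Polg held without each library, that of Esrra was lost without any 1 of them, and that of Gabpb1 was lost without replicate 1 or 3. Ppargc1a, the PGC-1 alpha coactivator, had 1, 5 and 0 counts, while Ppargc1b had a TPM of 1.15, 2.51 and 1.52. The 13 mRNAs of the mitochondrial genome, which encode the partners of these subunits, were called higher in 8 cases and lower in 3. From the alignment-free values 4 were higher and 0 lower, and by CPM 2 were higher and 5 lower, where the median was -0.25 in place of 1.89. The complex IV core subunit mt-Co1 had 357, 145 and 109, highest in replicate 1. Of the 3 called lower, mt-Co2 and mt-Nd3 were listed at 0 in the alignment-based table and had a mean of 26.2 and 25.6 in the alignment-free one, so their calls rest on the table that was read.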

How the data were processed

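The 3 libraries of the single group were analysed from the tables deposited for each. Values refer to assembly mm10 and annotation release M21, per the deposited notes. The alignment-based gene and transcript tables hold expected counts (reads divided between transcripts, not whole), TPM and credibility bounds, per the file headers. The alignment-free table holds estimated counts and TPM per transcript that the authors made without an alignment file, per the deposited notes. Tools, their versions and strand handling were not given in the sources used here. FPKM columns and the notes files gave no values. A TPM divides by effective length, so short genes with few counts have imprecise values. Rows of 26248 tRNAs, 96 ERCC spike-ins and phiX were left out of tests.

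Levels were log2(TPM + 0.1) minus the reference of the library, a scale that understates differences of genes near 0. limma 3.58.1 (R 4.3.3) tested a 2-fold zone with treat and a trended prior, two-sided, with Benjamini-Hochberg adjustment over 18426 genes (mean TPM of at least 0.1, or a member or listed gene). The test was also run on simulated levels with a common spread for all genes, unlike members with few counts, and its outcome is not given here. Spread used rounded expected counts in edgeR 4.0.16 (TMM, filterByExpr with a minimum count of 10, prior count 2). DESeq2 1.42.0 size factors were an alternative, as were other pseudocounts, filters, references, zones, length corrections, the alignment-free table and leaving out each library. Intervals are exact Poisson, and a floor is 3 counts. Molecular identifiers are not named, so both cover counting error only. Promoters came from RefSeq by symbol, taking the start nearest to the annotated one.

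Genes were named by this rule: per group the 3 highest and 3 lowest by mean TPM, the 5 largest table ratios, the 5 largest SD, the 5 highest retained-intron shares, isoform pairs, complex II, cytochrome c and AA467197. Other genes in the text (Atp5g2, Atp5g3, Atp5k, Atp5l, Ndufb8, Uqcrc2, Uqcrfs1, Cox6c and the genes outside the rule) were chosen after their values were seen. 1 member is counted but not reported singly here. Members and lists were chosen with earlier results of these data known.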

Additional observations from a re-analysis of the deposited data

Results flagged for a closer look

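1 result stood outside the members: Ndufb1-ps, which carries a subunit prefix but was left out because its symbol ends in -ps and its transcripts are not typed as protein-coding. It reached TPM 13.2 in replicate 1, 11.9 in replicate 2 and 12.9 in replicate 3 (mean 12.6), which is above what a count of 0 allows. It had a mean of 28.2 in the alignment-free table. Only Atp5b and Cox7c among the 90 members had a higher mean TPM in the alignment-based table. Of the other 12 symbols left out, 9 were listed at 0 in every library of that table. Groups of 3 libraries are too small for the test of a library that stands apart.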

How the results depend on the processing

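No paired analysis was possible because there is 1 group. Members called higher (2 as reported) were 0 with reference genes from a TPM of 5, a 4-fold zone or CPM not divided by length. They were 8 with reference genes from a TPM of 0.1 or no zone, and 5 in the alignment-free table. Over all 18426 genes tested, called higher in the same order were 1346, 1468, 2859, 4504, 4296 and 2855. Members called lower (58) were 23 of 57 tested at a TPM of at least 1, and 34 with reference genes from 0.1. They were 35 with the 4-fold zone, 51 in the alignment-free table, 65 by full length and 73 with no zone. They were 76 with reference genes from 5, 77 by CPM, 53 with pseudocount 0.01 and 53 to 55 without 1 library. Over all genes tested, 2701 of 11704 were called lower at a TPM of at least 1. Of 18426 genes, 6741 were lower with reference genes from 0.1 and 6707 with the 4-fold zone. The alignment-free table gave 9045 and full length 10285. The number was 12029 with no zone, 12700 with reference genes from 5 and 10995 by CPM. The alignment-free table against its own reference genes, an alternative chosen after seeing the data, gave 8 higher and 37 lower. Of 28511 genes tested there, 4682 were higher and 13737 lower. The median level (-2.19) was -1.7 with pseudocount 1, -1.23 at a TPM of at least 1, -3.38 and -1.12 with reference genes from 5 and 0.1, -1.65 in the alignment-free table (-1.06 with its own reference), -2.56 by full length and -3.92 by CPM. It ran from -2.24 to -2.08 without 1 library. The median SD (0.31) ran from 0.16 (without replicate 2) to 0.28 when 1 library was left out. The median retained-intron share (57%) was 66.2% for the 6 members with a TPM of at least 10, and 53.8% to 58.6% without 1 library. The order of all 8 isoform pairs was the same in the alignment-free table. The other alternatives run for them, other pseudocounts and leaving out a library, cannot change an order that holds in 3 of 3 libraries.

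Members whose level changed sign against the reference numbered 11 in the alignment-free table, 15 with its own reference genes and 9 by CPM. Those named by the rule with a call in either setting were as follows. In the alignment-free table they were Ndufb2 2.42, Ndufa12 0.93, Ndufs7 0.58, Cox8a 0.18 and Cox7a2 0.43. With its own reference genes they were Ndufab1 1.32, Ndufb2 3.01, Ndufa12 1.52, Ndufaf8 0.16, Ndufs7 1.17, Cox8a 0.77 and Cox7a2 1.02. By CPM they were Cox7c -0.44, Cox4i1 -1.63 and Atp5j -1.46. CPM is not divided by length, and the cause of the other changes was not tested. Depth is a limit, since 41 of 90 members did not pass the count filter.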
